A study of Mus musculus with 30 samples.

Results

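Ms4a1, Cd22, Fcer2a, Cr2, Cd86, Cd72, Cd24a, Il2ra, Fcrla and Cd38 are genes used as markers of B cell maturation, and most encode proteins of the B cell surface. They were picked by symbol, with earlier results of these data known. All 10 were found among the 24459 genes of the count tables, and their levels were followed over 18 RNA libraries. The libraries came from bone marrow of C57BL/6 mice that were wild type (WT, Ikzf3+/+), heterozygous (Ikzf3+/m) or homozygous (Ikzf3m/m) for G158R, an amino acid substitution in Aiolos. Aiolos, the product of Ikzf3, is a zinc finger DNA-binding protein of the Ikaros family. Both sorted populations were B220+AA4.1+IgM-. Pre-pro B cells were CD43+ and CD24-, pre-B cells CD43- and CD24+, and each genotype and stage had 3 libraries. Ikaros and Aiolos ChIP-seq peak lists came from cultured pre-B cells and from thymocytes of WT and homozygous mice, with 1 library for each antibody, genotype and cell type. The cultured cells were B220+IgM- marrow cells grown on Tst-4 stroma with IL-7, SCF and Flt3L, so they were not the sorted cells of the RNA libraries. The allele is germline, so every cell of the animal carries it. Ages are not given in the sources used here, nor is it stated that each library came from a separate mouse, so p-values measure the spread between libraries.

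B cells build their surface in steps as they leave the bone marrow. CD20, CD22, CD23 and CD21 appear or increase along the path to the mature B cell, while CD25 marks the pre-B stage and CD86 is best known from activated cells. Ikaros and Aiolos bind DNA through a GGGAA core and act on many genes of this path, and Ikaros is abundant throughout it. Fcrla stands apart from the others because its product stays inside the cell, in the endoplasmic reticulum. Ms4a1, Fcer2a and Cr2 are genes for proteins of later B cells, and their transcripts were measured here in cells sorted as IgM-. Which cells within the gates carried them was not tested.

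The libraries held 1888871 to 9048055 counts assigned to genes. The smallest was homozygous pre-B replicate 3 with 1888871, and the other 8 pre-B libraries held 4265056 to 6757040. Counts did not all follow library size in that library. Cd24a had 1447 counts in homozygous pre-B replicate 3 and 1882 to 2060 in the other 8 pre-B libraries, although that library was 0.303 times the mean size of the other homozygous pre-B libraries. The same ratio of counts was 0.288 for Cd22 and 0.289 for Cd86, close to that of library size, 0.341 to 0.412 for Fcrla, Cd72, Il2ra, Cr2 and Cd38, and 0.158 for Ms4a1. Over the 975 most abundant genes, the median ratio of CPM (counts scaled to a common library size) in that library to the other homozygous pre-B libraries was 1.11, and over 2691 genes of low abundance it was 0.734. Homozygous differences in pre-B cells are therefore also given without it. Xist and Y-linked transcripts showed XX libraries in all WT groups, 1 XY library in each heterozygous group and 2 XY libraries in each homozygous group. Without a sex term, sex cannot be told apart from genotype. No WT library was XY, so a sex term rests on the mutant libraries alone. Homozygous pre-B replicate 3 was XY, as was heterozygous pre-B replicate 2, the next smallest pre-B library with 4265056 counts. In pre-B cells a sex term therefore does not fully separate sex from library size. The gate genes Cd24a, Ptprc, Cd93 and Spn were present. Spn, the gene of the gate protein CD43, was lower in mutant pre-B cells, at 158.7 ± 1.52 CPM in WT, 74.7 ± 9.54 in heterozygous and 75.6 ± 11.7 in homozygous libraries (log2 -1.09 ± 0.14, adjusted p = 0.00152, and -1.07 ± 0.14, adjusted p = 0.000585). Its part in the pre-B results was not tested. The 10 pre-B defining genes summed to 3108 to 5252 CPM in pre-B libraries against 253 to 526 in pre-pro B libraries. In bulk RNA, fewer cells of a type and less RNA per cell cannot be told apart.

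**Figure D1:**
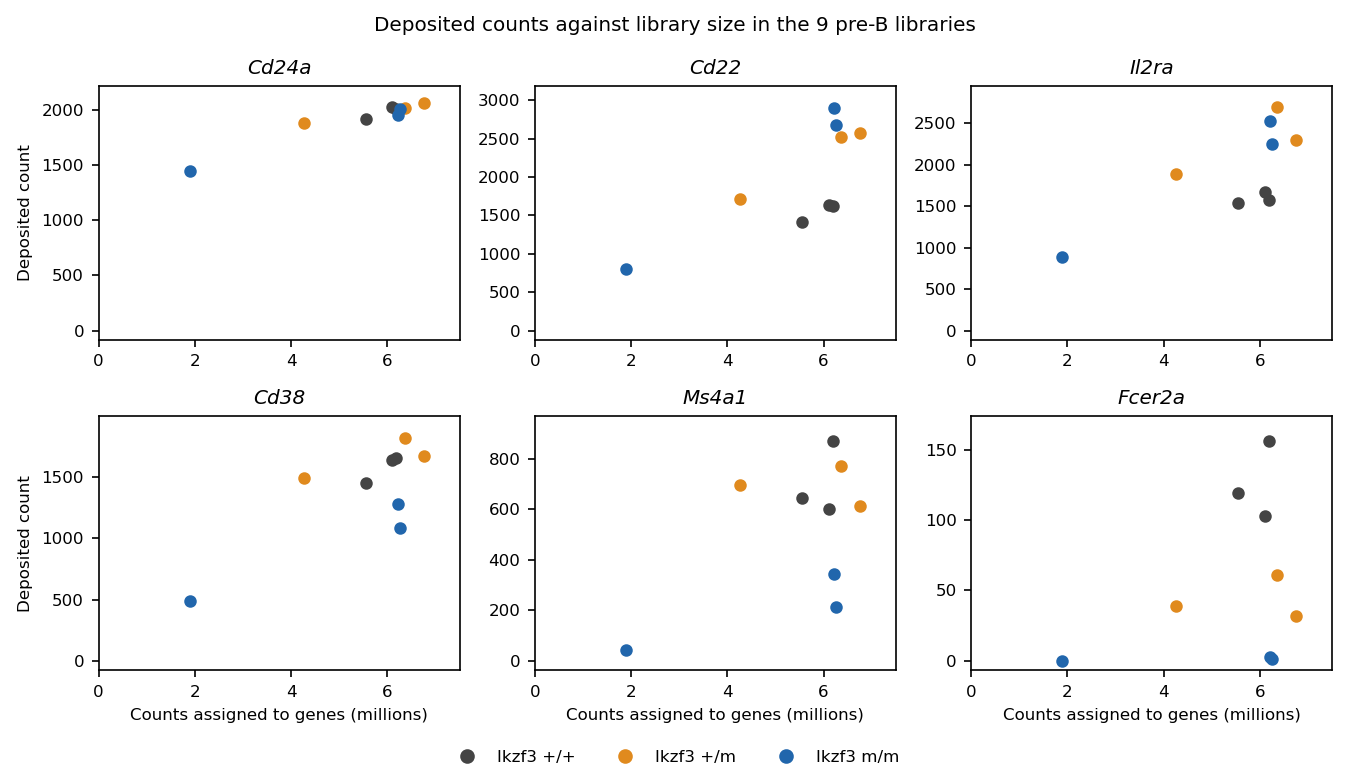
Deposited counts of 6 of the genes (vertical axes) against library size, the counts assigned to genes (horizontal axes), for the 9 pre-B libraries, 1 point each, coloured by genotype. Cd24a lies between 1882 and 2060 counts in all but the smallest library, and Fcer2a at 0 to 3 counts in the 3 homozygous libraries.

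In pre-B cells of homozygous mice the 10 genes moved in both directions. Cd22, Cd86 and Il2ra were higher than in WT, and Fcer2a and Ms4a1 were lower, by edgeR's quasi-likelihood test with an adjusted p under 0.05, the adjustment running over 11411 genes. Those 5 of 10 stand beside a background of 15.9% of all tested genes. The 10 genes were chosen with earlier results of these data known, so counts of them called are a description. The median log2 fold change of the 10 genes was -0.18, against 0.02 over all genes tested. In heterozygous pre-B cells Cd22 and Cd86 were higher and Fcer2a lower, 3 of 10 beside 6.18% of tested genes. Between homozygous and heterozygous pre-B cells Fcer2a and Ms4a1 were lower and none was higher, 2 of 10 beside 1.89%.

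**Figure D2:**
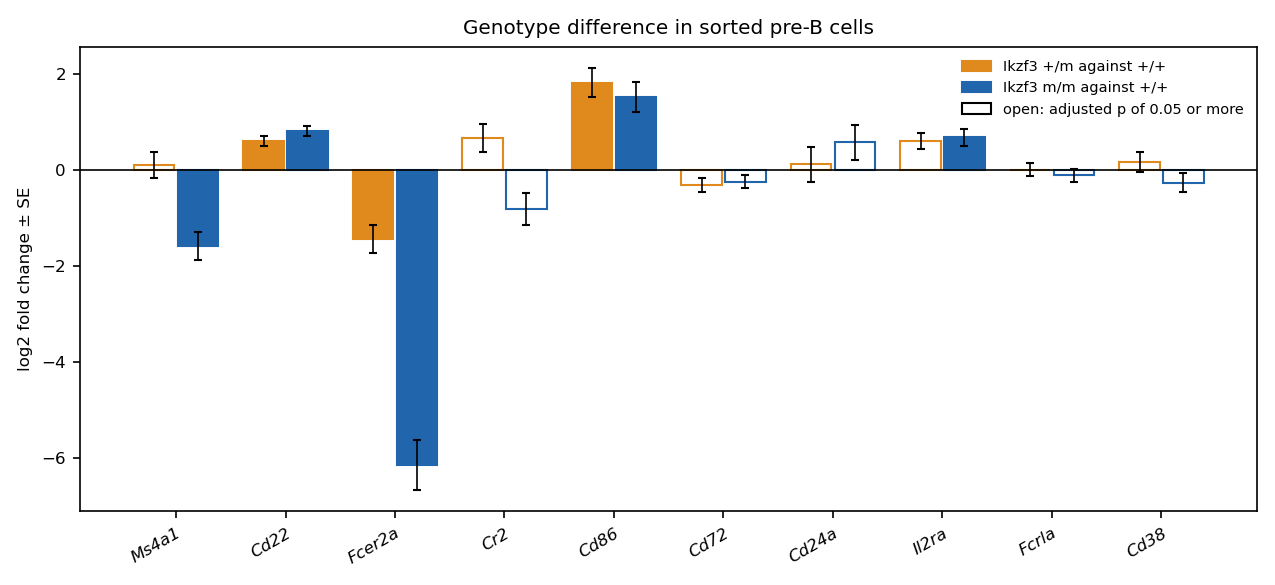
Log2 fold change of each gene in pre-B cells (vertical axis, bars, with standard error) for heterozygous and homozygous libraries against WT, 3 libraries a group. Filled bars passed the adjusted p threshold of 0.05, and the bar of Fcer2a in homozygous cells reaches -6.14.

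Cd22 encodes a sialic acid-binding inhibitory co-receptor of the B cell receptor. In pre-B cells its level was 258, 254 and 263 CPM in the WT libraries, 393, 423 and 374 in the heterozygous ones and 460, 414 and 482 in the homozygous ones. All mutant libraries lay above all WT libraries, and the heterozygous and homozygous ranges met. The difference from WT was 0.81 ± 0.11 (SE) on the log2 scale in homozygous cells (adjusted p = 0.000667) and 0.61 ± 0.11 in heterozygous cells (adjusted p = 0.00751). Without homozygous replicate 3 the homozygous value was 0.76 (adjusted p = 0.000179). The heterozygous value was as large without WT replicate 1 (0.61) or WT replicate 2 (0.60), but no longer passed (adjusted p = 0.0511 and 0.0587). Homozygous against heterozygous gave 0.20 ± 0.11 (adjusted p = 0.521).

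Cd22 also carried the tallest Ikaros peak of the 10 genes. In WT cultured pre-B cells the peak lay at chr7:30878545-30879313 (mm10), with the authors' fold enrichment of 21.8 and a −log10 q of 102, ranked 12 of 3683 by fold in its list. In homozygous cultured pre-B cells it lay at chr7:30878309-30879346, with a fold of 18.7 and a −log10 q of 82.6, ranked 102 of 8609. Neither thymocyte list had a peak within 50 kb of Cd22. Cd22 lies on the minus strand at chr7:30865404-30880342, and both peaks covered the whole RefSeq promoter of GRCm38.p6 at chr7:30878979-30879278. That promoter is shown because it is the only one of the members' listed promoters under a deposited peak. Ms4a1, Cd86 and Cd24a had no listed promoter. The listed start site of the Cd22 promoter lies inside the gene, not at the gene's 5′ end at 30880342. The promoter runs from 250 bases before that start site to 50 bases after it. Capitals mark GGGAA, the core that Ikaros family proteins bind.
Cd22 promoter: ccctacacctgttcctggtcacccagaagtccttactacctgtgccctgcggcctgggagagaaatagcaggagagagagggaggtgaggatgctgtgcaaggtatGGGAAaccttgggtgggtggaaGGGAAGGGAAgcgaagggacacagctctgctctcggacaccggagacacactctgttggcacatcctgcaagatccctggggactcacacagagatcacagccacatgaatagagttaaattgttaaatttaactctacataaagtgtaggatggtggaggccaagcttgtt
Both strands were searched for GGGAA, and 3 copies were found, all on the strand of the gene, starting 144, 122 and 117 bases before the start site. The last of these directly follows the one before it, without overlap, and the first is part of the longer TGGGAA. Of 32851 RefSeq promoters of the same length, 62.7% held GGGAA at least once and 8.83% held it 3 times or more, and TGGGAA was in 25.6%.

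Cd72 encodes another inhibitory co-receptor, a lectin-like protein that, like CD22, recruits the phosphatase SHP-1. In pre-B cells it stood at 259, 255 and 234 CPM in WT, 191, 218 and 197 in heterozygous and 196, 182 and 258 in homozygous libraries. The third homozygous value is the shallow library and lies inside the WT range. Homozygous against WT was -0.24 ± 0.14 (adjusted p = 0.274), and without that library -0.40 (adjusted p = 0.0136). The homozygous difference also passed with a library size term (-0.38, adjusted p = 0.000454). It did not pass with a sex term (-0.41, adjusted p = 0.104), the block for replicate number (-0.25, adjusted p = 0.396) or DESeq2 (-0.25, adjusted p = 0.293). Heterozygous against WT was -0.31 ± 0.14 (adjusted p = 0.247), with the 3 heterozygous libraries below the 3 WT ones.

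Fcer2a encodes CD23, the low-affinity IgE receptor of mature B cells, and showed the largest fold change of the 10. Its pre-B counts were 156, 119 and 103 in WT, 61, 39 and 32 in heterozygous and 3, 1 and 0 in homozygous libraries. As CPM these were 16.6 to 24.9, then 4.64 to 9.61, then 0 to 0.475, so the 3 genotypes fell in order without overlap. The homozygous difference from WT was -6.14 ± 0.52 (adjusted p = 5.32e-05), and the heterozygous one -1.43 ± 0.30 (adjusted p = 0.0181). Summed over libraries, 378 counts in WT stood against 4 in homozygous cells, a ratio per library size of 76.0 with an exact Poisson 95% interval of 29.4 to 280 that covers counting error only. The heterozygous difference did not pass without WT replicate 1 (-1.28, adjusted p = 0.1025), WT replicate 2 (-1.41, adjusted p = 0.0825) or heterozygous replicate 1 (-1.61, adjusted p = 0.0505). The homozygous call held without homozygous replicate 3, at -5.97 (adjusted p = 3.2e-05).

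Cr2 encodes the complement receptors CD21 and CD35, which mouse cells make from 1 gene by splicing. Its pre-B counts were 55, 55 and 39 in WT, 113, 54 and 61 in heterozygous and 23, 32 and 11 in homozygous libraries. All homozygous libraries (3.64 to 6.60 CPM) lay below all heterozygous ones (8.85 to 17.6 CPM), and the WT range of 6.28 to 9.84 CPM met both. Homozygous against heterozygous was -1.48 ± 0.33 (adjusted p = 0.0538), and it passed without homozygous replicate 3 (-1.61, adjusted p = 0.0305) or heterozygous replicate 3 (adjusted p = 0.0326). It also passed with DESeq2 (adjusted p = 0.00577), no count filter (adjusted p = 0.0247), a library size term (adjusted p = 0.00551) and all 18 libraries in 1 fit (adjusted p = 0.00596). It did not pass with a sex term (-1.47, adjusted p = 0.0553) or a block for replicate number (-1.495, adjusted p = 0.132). Nor did it pass without any other library of either group. Against WT the values were -0.81 ± 0.34 in homozygous cells (adjusted p = 0.142, and -0.94 with 0.093 without homozygous replicate 3) and 0.67 ± 0.29 in heterozygous cells (adjusted p = 0.252).

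Fcrla encodes an Fc receptor-like protein that binds immunoglobulin inside the cell. It stood at 282 to 293 CPM in WT, 266 to 328 in heterozygous and 236 to 318 in homozygous pre-B libraries, and the ranges overlapped. The difference from WT was -0.11 ± 0.13 in homozygous cells (adjusted p = 0.623), and -0.25 without homozygous replicate 3 (adjusted p = 0.126). It passed with a library size term (-0.24, adjusted p = 0.00616). It did not pass with a sex term (-0.29, adjusted p = 0.219), the block for replicate number (-0.11, adjusted p = 0.706) or DESeq2 (-0.11, adjusted p = 0.663). In XX libraries only, with 1 homozygous library, it was -0.29, and no p-value is given for that fit.

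Ms4a1 encodes CD20, a tetraspan protein and standard marker of B cells past the earliest stages. Its pre-B counts were 873, 646 and 602 in WT, 772, 696 and 614 in heterozygous and 343, 215 and 44 in homozygous libraries. The homozygous libraries, at 26.4 to 54.3 CPM, lay below the WT libraries at 96.9 to 139 CPM and the heterozygous libraries at 89.1 to 171 CPM. Homozygous cells differed from WT by -1.58 ± 0.29 (adjusted p = 0.00491) and from heterozygous cells by -1.68 ± 0.29 (adjusted p = 0.0195). Without homozygous replicate 3 these were -1.42 (adjusted p = 0.0052) and -1.52 (adjusted p = 0.0181). The second did not pass without heterozygous replicate 1 (-1.72, adjusted p = 0.074) or homozygous replicate 2 (-1.56, adjusted p = 0.0955). Heterozygous against WT was 0.10 ± 0.27 (adjusted p = 0.866), so with 1 mutant allele Fcer2a was lower and no change of Ms4a1 was detected. No peak of any of the 8 lists lay within 50 kb of Ms4a1.

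Cd86 encodes a ligand of CD28 and CTLA-4 that co-stimulates T cells. Its pre-B counts were 32, 29 and 26 in WT, 99, 105 and 77 in heterozygous and 89, 84 and 25 in homozygous libraries. As CPM the WT libraries lay at 4.19 to 5.19, the heterozygous at 11.2 to 25.9 and the homozygous at 13.0 to 15.0. Both mutant groups lay wholly above WT and overlapped each other. The difference from WT was 1.82 ± 0.30 in heterozygous cells (adjusted p = 0.0061) and 1.52 ± 0.31 in homozygous cells (adjusted p = 0.00814), and homozygous against heterozygous gave -0.30 ± 0.28 (adjusted p = 0.797). The homozygous value was 1.17 with a sex term (adjusted p = 0.0243) and 1.48 without homozygous replicate 3 (adjusted p = 0.00911). As with Ms4a1, no deposited peak lay within 50 kb.

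Il2ra encodes CD25, the alpha chain of the interleukin-2 receptor and a marker of pre-B cells. It stood at 252, 275 and 269 CPM in WT, 419, 464 and 333 in heterozygous and 400, 346 and 532 in homozygous pre-B libraries. Every mutant library lay above every WT library. Homozygous against WT was 0.68 ± 0.17 (adjusted p = 0.025), and heterozygous against WT 0.60 ± 0.17 (adjusted p = 0.0761, and 0.044 without heterozygous replicate 3). The homozygous call was lost with a sex term (0.43, adjusted p = 0.139), with the replicate block (0.68, adjusted p = 0.0803), without any 1 WT library (0.64 to 0.71, adjusted p 0.0807 to 0.106) and without homozygous replicate 1 (0.72, adjusted p = 0.0501). Without homozygous replicate 3 it was 0.49 (adjusted p = 0.0238).

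Cd24a encodes CD24, a small glycoprotein used here as a gate. Its pre-B level was 320 to 343 CPM in WT, 299 to 464 in heterozygous and 309, 310 and 868 in homozygous libraries. The value of 868 is the shallow library, and the difference from WT went from 0.58 ± 0.36 (adjusted p = 0.329) to -0.09 (adjusted p = 0.78) without it. Cd38 encodes an ectoenzyme that consumes NAD. It stood at 260 to 264 CPM in WT, 243 to 368 in heterozygous and 203, 167 and 292 in homozygous pre-B libraries. Its homozygous difference from WT was -0.26 ± 0.21 (adjusted p = 0.431), and without homozygous replicate 3 it was -0.51 (adjusted p = 0.0449). It also passed with a library size term (-0.50, adjusted p = 0.00096) and with a sex term (-0.63, adjusted p = 0.0367). It did not pass with DESeq2 (-0.26, adjusted p = 0.498) or the replicate block (-0.27, adjusted p = 0.533).

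**Figure D3:**
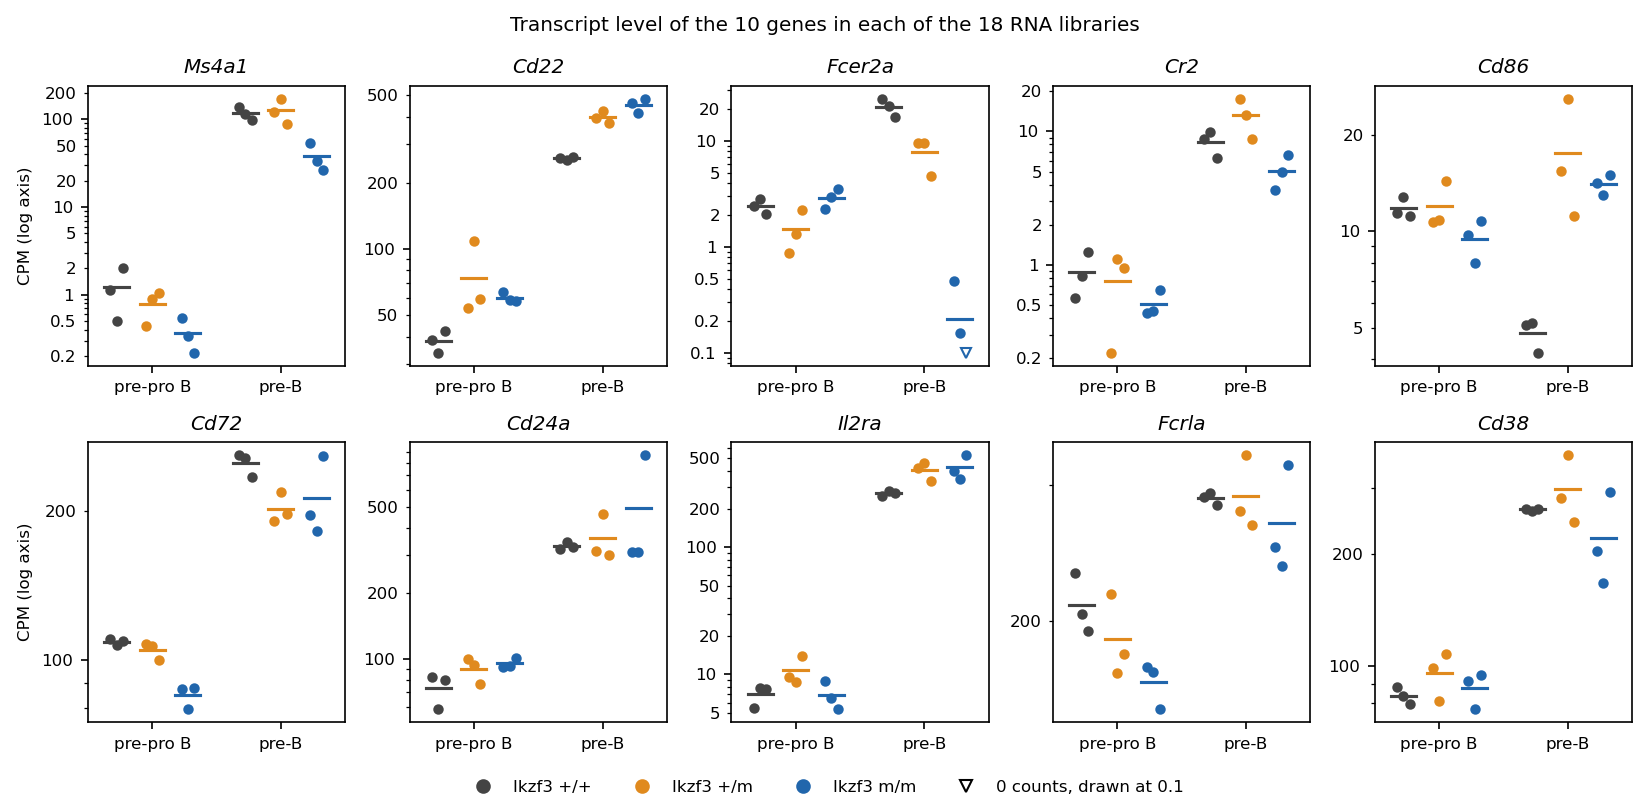
Level of each gene in CPM (vertical log axes) in the 18 libraries, by stage and genotype; points are libraries, lines are group means, and the open triangle is a library with 0 counts drawn at 0.1. In pre-B cells Cd22, Cd86 and Il2ra lie above WT in every mutant library, and Fcer2a falls from WT through heterozygous to homozygous libraries.

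In homozygous against WT pre-pro B cells none of the 8 genes tested was higher and 2 were lower, beside 22.4% of 12188 genes called. Ms4a1 and Cr2, at 1 to 13 counts a library, were too low to be tested. Cd72 stood at 110, 107 and 109 CPM in WT, 108, 107 and 99.9 in heterozygous and 87.6, 79.7 and 87.9 in homozygous libraries. The homozygous libraries lay below the other 6, and the difference from WT was -0.37 ± 0.05 (adjusted p = 0.00245). Fcrla went from 194 to 231 CPM in WT to 154 to 174 in homozygous libraries, a difference of -0.34 ± 0.09 (adjusted p = 0.0246). The Fcrla difference shrank to -0.12 with a library size term (adjusted p = 0.41) and to -0.25 with a sex term (adjusted p = 0.188). It was -0.27 without WT replicate 1 and -0.29 without homozygous replicate 3, and -0.37 without WT replicate 2 or homozygous replicate 2, and passed in none of these (adjusted p 0.0603 to 0.121).

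Cd22 in pre-pro B cells stood at 38.8, 33.8 and 42.6 CPM in WT, 54.2, 109 and 59.2 in heterozygous and 64.0, 58.5 and 58.1 in homozygous libraries. All 6 mutant libraries lay above WT, and heterozygous replicate 2 stood apart at 109. The edgeR differences from WT, 0.64 ± 0.26 in homozygous cells (adjusted p = 0.124) and 0.96 ± 0.26 in heterozygous cells (adjusted p = 0.106), did not pass, and DESeq2 gave adjusted p of 0.0231 and 0.00135. The homozygous value was 0.30 with a sex term (adjusted p = 0.435) and 0.21 with a library size term (adjusted p = 0.764). In XX libraries only, with 1 homozygous library, it was 0.60, and the heterozygous value was 0.56. No p-value is given for that fit. Fcer2a, with 4 to 32 counts a library, and Cd86, with 49 to 122, did not pass either. No gene of the 8 tested was called in heterozygous against WT cells, beside 0.558% of all genes, or in homozygous against heterozygous cells, beside 0.0164%. At an unadjusted edgeR p under 0.05 there were 2 and 3 of them, beside 2505 and 1470 of all 12188 genes. DESeq2 called 1 in each, beside 466 and 45 of 17843 genes. Without heterozygous replicate 1, Cd22 (adjusted p = 0.043) and Fcrla (-0.27, adjusted p = 0.0418) passed against WT, and without heterozygous replicate 2, Cd72 passed between homozygous and heterozygous cells (adjusted p = 0.0445).

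Markers of other cell types moved in the pre-pro B gate. The 12 plasmacytoid dendritic cell markers summed to 5992 to 6747 CPM in WT, 4743 to 7155 in heterozygous and 4554 to 4733 in homozygous libraries. In homozygous cells 5 of 12 were lower and none higher, beside 22.4% of all genes called in either direction. The 12 natural killer and innate lymphoid markers summed to 132 to 143 CPM in WT, 235 to 365 in heterozygous and 306 to 503 in homozygous libraries. Of these, 5 of 12 were higher in heterozygous cells, beside 0.558% of all genes called, and 11 of 12 in homozygous cells, beside 22.4%. In homozygous cells 8 of 13 tested myeloid and dendritic markers were also higher, beside the same 22.4%. Homozygous pre-pro B libraries were also deeper, at 8592557 to 9048055 counts against 5443344 to 6492192 in WT. The part of these differences in the values of Cd72, Fcrla and Cd22 was not tested. In pre-B cells the natural killer markers summed to 12.6 to 13.6 CPM in WT, 15.9 to 25.6 in heterozygous and 31.8 to 40.8 in homozygous libraries, with 5 of 12 genes at 0 in WT. Only 3 of the 12 were tested there. From WT to homozygous cells mean Prf1 went from 0.631 to 10.9 CPM and Klrb1c from 1.79 to 10.1. Id2 stood at 9.57 and 9.44 CPM. Klrd1 had pre-B group means of at most 2.02 CPM, and the remaining genes at most 1.17. The 14 myeloid markers summed to 58.8 to 59.6 CPM in WT, 86.3 to 96.8 in heterozygous and 122 to 157 in homozygous libraries, most of it Itgam, at means of 52.5, 87.7 and 122.2 CPM. The T lineage markers summed to 51.1 to 52.0, 23.7 to 30.2 and 29.4 to 41.5 CPM in the same order. Most of that sum was Lck, at means of 40.6, 19.9 and 23.4 CPM. Cd3e, Cd3d, Cd3g, Cd4 and Cd8a had pre-B group means of at most 0.606 CPM. The part of these marker differences in the pre-B values was not tested.

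From pre-pro B to pre-B cells, 9 of the 10 genes rose in WT and Cd86 fell, beside 64.3% of 12440 genes called. Ms4a1 rose from 1.22 ± 0.77 to 117 ± 21.3 CPM (SD, n = 3) and Il2ra from 5.44 to 7.82 CPM to 252 to 275 CPM over the 3 libraries. Cd22 rose 6.72-fold, Cr2 9.05-fold, Fcer2a 8.58-fold, Cd38 3.15-fold, Cd72 2.29-fold and Fcrla 1.37-fold. Cd24a was 4.48-fold higher, which the gate fixes, since pre-B cells were sorted for CD24. Cd86 went from 11.8 ± 0.87 to 4.83 ± 0.56 CPM, a log2 difference of -1.29 ± 0.27 (adjusted p = 0.000369).

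The same 9 genes rose in heterozygous cells, beside 68.1% of genes called, and Cd86 did not pass at 0.49 ± 0.23 (adjusted p = 0.0632). In homozygous cells 8 rose and Fcer2a fell, beside 69.1%, and Cd86 did not pass at 0.54 ± 0.24 (adjusted p = 0.0536). Fcer2a went from 2.43 to 20.9 CPM in WT, from 1.48 to 7.92 in heterozygous cells and from 2.89 to 0.21 in homozygous cells. The homozygous fall was -3.30 ± 0.61 (adjusted p = 0.000134), on 79 counts in pre-pro B and 4 in pre-B libraries. The log2 rises of Ms4a1 in WT, heterozygous and homozygous cells were 6.55, 7.17 and 6.68, those of Cd22 2.75, 2.40 and 2.91, and those of Cr2 3.18, 3.93 and 3.14. In pre-pro B cells Ms4a1 had 22, 19 and 10 counts summed over the libraries of each genotype, and Cr2 16, 19 and 14. These are too few to compare their rises between genotypes. The homozygous interaction of Ms4a1 was 0.14 ± 0.66. The rises of Cd38 were 1.66, 1.63 and 1.31. The Cd86 difference passed in heterozygous cells without replicate 3 of either stage (adjusted p = 0.0382 for pre-pro B and 0.00401 for pre-B), and in homozygous cells with a sex term (adjusted p = 0.029) or without pre-pro B replicate 3 (adjusted p = 0.04997). The plasmacytoid dendritic cell markers summed to 4554 to 7155 CPM in the 9 pre-pro B libraries and 634 to 727 in the 9 pre-B libraries, and their part in the stage differences was not tested.

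**Figure D4:**
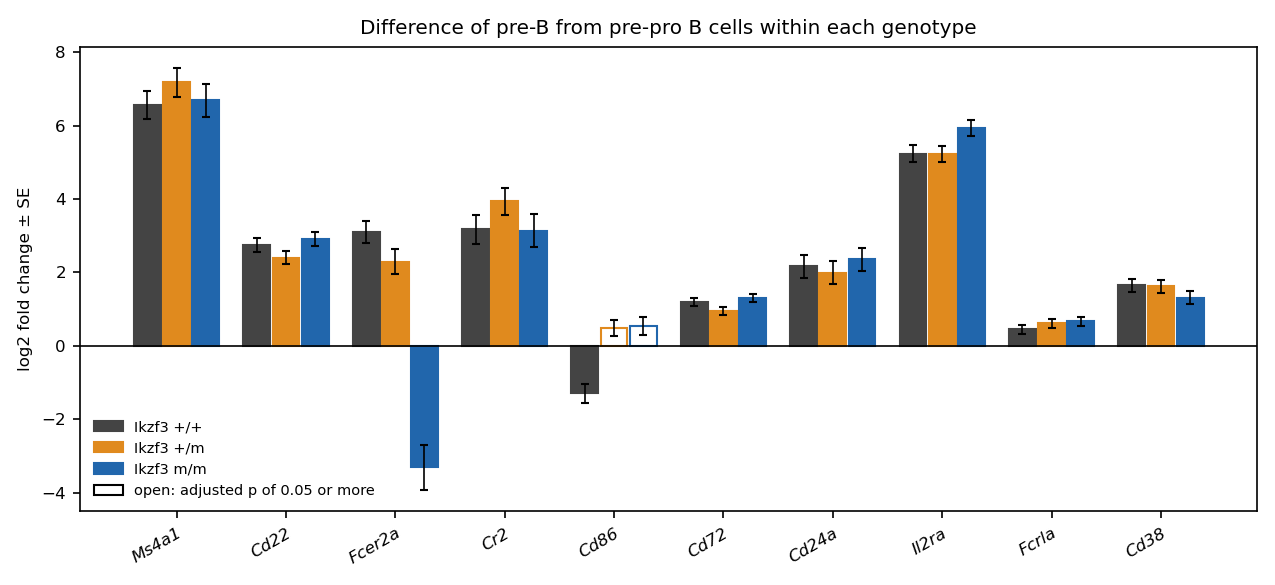
Log2 fold change from pre-pro B to pre-B cells (vertical axis, bars, with standard error) for each gene within each genotype, 3 libraries a group, filled where the adjusted p is under 0.05. Fcer2a rises in WT and heterozygous cells and falls in homozygous cells, and the only called stage difference of Cd86 is its fall in WT cells.

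The difference between the genotype effects of the stages was tested as an interaction over all 18 libraries. For the homozygous effect 2 of 10 genes passed, beside 14.5% of genes. Fcer2a had an interaction of -6.41 ± 0.65 (adjusted p = 2.67e-06) and Cd86 one of 1.83 ± 0.36 (adjusted p = 0.00191). For the heterozygous effect Cd86 passed at 1.78 ± 0.35 (adjusted p = 0.00474), 1 of 10 beside 5.65%, and Fcer2a did not at -0.81 ± 0.50 (adjusted p = 0.451). For Cd22 the homozygous interaction was 0.16 ± 0.26 (adjusted p = 0.749), so no difference between its effects in the 2 stages was detected.

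Among 37 other B cell surface genes tested in pre-B cells, 4 were higher and 9 lower in homozygous than in WT cells, beside 15.9% of all genes called in either direction, with a median log2 fold change of -0.09 against 0.02 over all genes. Cd40, the receptor for T cell help, went from 26.6 ± 3.66 to 2.62 ± 2.61 CPM (log2 -3.01 ± 0.41, adjusted p = 0.000829). Fcmr, an IgM Fc receptor, and Cd55, a complement regulator, fell by 1.43 ± 0.16 and 1.37 ± 0.24. Cd83 and Bst1, the paralog of Cd38, each fell by 0.98. Cd69, an early activation antigen, was higher by 1.55 ± 0.24, the tetraspanin gene Cd81 by 0.53 ± 0.12 and the adhesion receptor gene Cd44 by 0.47 ± 0.12. In pre-pro B cells 8 of 35 of these genes were higher and 7 lower, beside 22.4% of all genes, and Cd9, Cd5, Bst1, Btla and Ms4a6c had the largest rises, 1.02 to 0.56. Cd200, Cd180, Ly86, Lair1 and Cd37 had the largest falls, -0.67 to -0.40. Bst1 was thus higher in homozygous pre-pro B cells (0.87 ± 0.15) and lower in homozygous pre-B cells (-0.98 ± 0.25).

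Of 28 partner and signalling genes tested in pre-B cells, 5 were higher and 6 lower in homozygous cells, beside 15.9% of all genes. Around CD22, the sialic acid enzymes Cmah and St6gal1, of which St6gal1 makes the linkage CD22 binds, were higher by 1.03 ± 0.14 and 0.45 ± 0.09. The phosphatase genes Ptpn6, for SHP-1, and Inpp5d, for SHIP-1, fell by 0.40 ± 0.09 and 0.51 ± 0.11. Siglecg, a relative of Cd22, fell by 0.60 ± 0.10. Around CD25, the shared cytokine receptor gene Il2rg was higher by 0.56 ± 0.11 and Stat5a lower by 0.79 ± 0.19. Fyn, a Src family kinase gene, was higher by 0.99 ± 0.09, and Vav1, for an exchange factor, lower by 0.49 ± 0.12. In pre-pro B cells 13 of 30 were lower and 1 higher, beside 22.4% of all genes. Il2rb, for the interleukin-2 receptor beta chain that natural killer cells also carry, went from 8.09 ± 2.01 to 58.7 ± 22.2 CPM (adjusted p = 0.00797). Ptpn6, Fyn, Blnk, Ptprc and Lyn had the largest falls there, -0.48 to -0.34.

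Of 20 B cell regulator genes in pre-B cells, 3 were higher and 3 lower, beside 15.9% of all genes. Prdm1, for the plasma cell factor Blimp-1, rose from 14.9 ± 1.31 to 197 ± 50.4 CPM (3.72 ± 0.19, adjusted p = 6.54e-06), and Foxo1 and Nfkb1 by 0.46 and 0.33. Id3, Notch2 and Spib fell by 1.92, 1.05 and 0.75. In pre-pro B cells Pou2f2 and Bach2 were higher, and Spib, Ikzf1 and Nfkb1 lower, by at most 0.56. Among 11 genes that define mature B cells, 6 were lower and 1 was higher in homozygous pre-B cells, beside 15.9% of all genes. The median over the 11 was -0.50. Of the 6 plasma cell genes 3 were higher and 1, Sdc1, was lower, beside the same 15.9%. The 10 pre-B defining genes lay between -0.26 and 0.50 in that comparison (adjusted p 0.123 to 0.95). Of the 6 Ms4a family genes tested in pre-B cells 1 was lower, Ms4a1 itself, and 1 was higher, beside 15.9% of all genes. The higher one was Ms4a6b at 1.38 ± 0.26 (adjusted p = 0.00586).

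Of these named genes, Cd81, Cd44, Cd83, Vav1, Foxo1 and Nfkb1 no longer passed in pre-B cells with a sex term (adjusted p 0.0542 to 0.152). That term does not fully separate sex from library size there. In pre-pro B cells, where marker sums and library size also differed between the groups, 7 of the 21 named genes passed with a sex term and 3 with a library size term.

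Across the 9 pre-B libraries the levels of the called genes can be set beside all tested genes. Pearson correlations of log2 CPM are given as a description, over libraries that share genotype groups and depth. Ms4a1 ran most closely with Ly6d (r = 0.989), Gm15987 and Ifi30 (both 0.982), and Fcer2a with Tnfrsf13c (0.992), Cdc42ep3 (0.99) and Egfl6 (0.989). Cd22 ran with Hmgcll1 (0.999), Anxa5 (0.995) and Plek (0.993), Cd86 with Wdr78 (0.989), Map4k5 (0.985) and Dnajb4 (0.979), and Il2ra with Pde4b (0.994), Dtx3l (0.993) and Fam91a1 (0.991). Among the members, Cd22 and Il2ra had r = 0.912, Cd22 and Cd86 0.903, Ms4a1 and Fcer2a 0.929, and Cd22 and Fcer2a -0.817. Fcrla and Cd38 had r = 0.936, in 2 genes whose CPM is high in the shallow library.

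Ikaros peaks lay in or within 10 kb of 6 of the 10 genes in both the WT and the homozygous cultured pre-B list. They were the same 6, Cd22, Fcer2a, Cd72, Cd24a, Il2ra and Cd38, beside 14.3% and 30.4% of 10959 tested genes that RefSeq places. In thymocytes 3 of 10 had such a peak in WT and 4 in homozygous cells, beside 17.9% and 49.5%. Fold values come from the authors' peak caller, and lists of 3683, 8609, 3572 and 8221 peaks cannot be compared by rank. With 1 library each, differences between the lists have no replicate check.

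Apart from Cd22, the peaks were low. The peak near Fcer2a lay 5025 bases beyond its 3′ end in the WT pre-B list (chr8:3674916-3675255, fold 4.65) and 4867 bases beyond it in the homozygous one (chr8:3674935-3675413, fold 5.17). It was not over any of the 3 RefSeq promoters of the gene. Cd38 had a peak inside the gene at chr5:43884284-43884570 in WT (fold 6.45) and at chr5:43884299-43884553 in homozygous cells (fold 4.52). Il2ra had one inside the gene at chr2:11656515-11656738 (fold 4.78) and chr2:11656400-11656725 (fold 4.66), and peaks at that place were also in both thymocyte lists. Cd72 had a peak just upstream in all 4 Ikaros lists, 1676 bases from the gene in WT pre-B cells (fold 5.32) and 1536 bases in homozygous pre-B cells (fold 4.23). Cd24a had one inside the gene in both pre-B lists (fold 4.08 and 5.46). Cr2 had one beyond its 3′ end in the thymocyte lists only, at 5253 and 5110 bases. Fcrla had none within 10 kb.

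**Figure D5:**
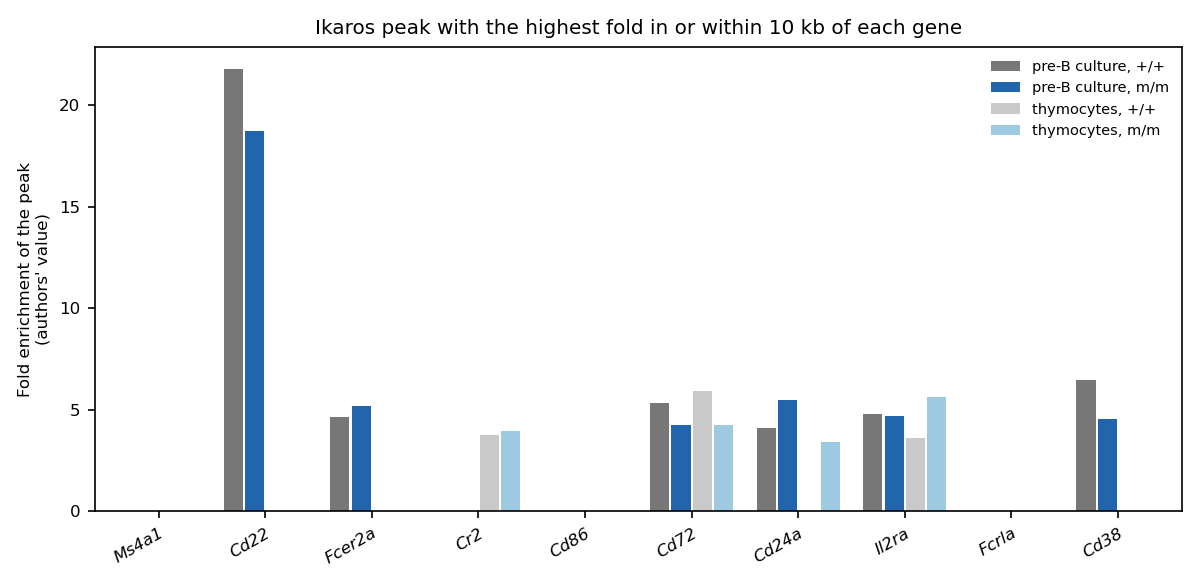
Authors' fold enrichment (vertical axis) of the Ikaros peak with the highest fold in or within 10 kb of each gene, in the 4 Ikaros lists, 1 library each; no bar means no listed peak. Cd22 stands at 21.8 and 18.7 in the pre-B lists, and every other bar is below 6.5.

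The Aiolos lists held few peaks, 431 in WT and 24 in homozygous cultured pre-B cells, and 25 and 184 in WT and homozygous thymocytes. None lay within 50 kb of any of the 10 genes. Of all placed genes, 0.949% and 0.0547% had an Aiolos peak within 10 kb in the pre-B lists, and 0.073% and 0.538% in the thymocyte lists. With so few peaks listed, Aiolos binding at these genes was not detectable.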

How the data were processed

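Poly(A) RNA libraries of sorted cells were counted per gene by the authors, and the deposited counts are whole numbers per gene symbol. Per the submitters' processing notes the tools include MACS2 2.1.1, STAR 2.7.0 and HISAT2 2.1.0, and the build is mm10. The counter and its strand setting are not given in the sources used here. The 5 entries that name no gene were left out. The deposited peak files, per their columns, give the authors' fold enrichment ratio, −log10 p, −log10 q and a score made from the q value per peak. Counts were tested with edgeR 4.0.16 in R 4.3.3 (quasi-likelihood, TMM, filterByExpr), over the 9 libraries of a stage for genotype and all 18 for stage and interaction, with Benjamini-Hochberg adjustment over all genes tested. CPM use TMM library sizes, except in the ratios by abundance for homozygous pre-B replicate 3, which use counts assigned to genes. SE is the log2 fold change divided by the root of F. DESeq2 1.42.0 and other settings were alternatives. Scripts were tested on simulated data. Biological variation was 8.13% in pre-pro B and 16.3% in pre-B libraries. Gene and promoter positions are RefSeq's for GRCm38.p6. The members, gene lists and tests were chosen with earlier results of these data known. From the lists of other surface, partner and regulator genes, those called in homozygous against WT were named, up to 5 per direction with the largest change. Ms4a6b, Sdc1, Itgam and the genes singled out from the natural killer and T lineage sums were named after their values were seen. No gene lengths were used, so levels are not compared between genes. Ighm and Ighd were not analysed here. Some genes of the lists that met the rule are not reported here.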

Additional observations from a re-analysis of the deposited data

Results flagged for a closer look

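The genotype effect on Fcer2a differed between the stages in the test of the difference itself: the homozygous effect in pre-B minus that in pre-pro B cells was -6.41 on the log2 scale (edgeR adjusted p = 2.67e-06). The genotype effect on Cd86 differed between the stages as well, by 1.83 for the homozygous effect (adjusted p = 0.00191) and by 1.78 for the heterozygous one (adjusted p = 0.00474). All 3 passed in each of the 21 alternatives run, with Fcer2a between -7.46 and -6.00 and Cd86 between 1.64 and 1.98 and between 1.33 and 2.03.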

How the results depend on the processing

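Of 1680 values of single genes under alternatives, 1613 kept their direction and side of the threshold or, in 81 cases that never passed, only changed sign; 21 no longer passed, 45 newly passed and 1 reversed: Cd24a in the homozygous interaction at -0.79 with a library size term, against 0.19. In pre-B cells the count of members called rose with a library size term to 9 (homozygous against WT), 5 (heterozygous against WT) and 5 (homozygous against heterozygous), and with XX libraries only, added after the sexes were read and resting on 1 homozygous library assumed to vary like the rest, to 8 and 5 for the first and second. That term also gave 4 and 2 for the homozygous and heterozygous interactions. In pre-pro B cells the count for homozygous against WT was 1 with a library size or sex term, beside 213 and 605 of 12188 genes. For heterozygous against WT it was 1 with DESeq2 or all 18 libraries in 1 fit, beside 466 of 17843 and 187 of 12440 genes. For homozygous against heterozygous it was 1 with DESeq2 or no count filter, beside 45 and 43 of 17843 genes. The cause was not tested. Leaving out 1 library gave 1 to 2, 0 to 2 and 0 to 1 for these pre-pro B counts in that order, and 4 to 7, 1 to 4 and 1 to 4 for the pre-B counts. In thymocytes, members with an Ikaros peak went from 3 to 1 (WT) and from 4 to 2 (homozygous) by gene body only and by a −log10 q of at least 5. The share of all placed genes was not computed at these settings, so the falls cannot be read as particular to the members. Replicate numbers were not taken as pairs: r of the deviations of same-numbered libraries was -0.49 to 0.17 between genotypes, where 6 of 18 correlated best with their own number. The replicate block gave 4 members in homozygous against WT pre-B cells, Il2ra lost at adjusted p = 0.0803, and left the other 10 counts as they were. Between the stages of a genotype r was -0.11 to 0.11, 6 of 9 correlated best with their own number, all 3 WT ones among them, and same-numbered libraries had the same sex chromosomes in 9 of 9. That is a hint from the data, not the design, that numbers tie the stages. A replicate block within genotype, added after seeing the data, left the members called in both interactions at 2 and 1. Counts over all genes also moved. In pre-pro B cells the 2730 genes called in homozygous against WT ranged from 213 (library size term) to 2747, the 68 in heterozygous against WT from 0 (without WT replicate 1) to 1901 (without heterozygous replicate 1), and the 2 in homozygous against heterozygous from 0 to 223 (without heterozygous replicate 2). In pre-B cells the 1811, 705 and 216 ranged from 1055, 336 (both without WT replicate 1) and 52 (without heterozygous replicate 1) to 3456, 3005 and 1604 (library size term). The 703 of the heterozygous interaction ranged from 395 (replicate block within genotype) to 1055 (library size term). Fcer2a had 4 counts in all in homozygous pre-B cells, which limits the precision of its fold change. Replicates 1 and 2 held 3 and 1 of them, in libraries of 6212714 and 6257527 counts assigned to genes.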
